A study of Mus musculus with 6 samples.

Results

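Expression of 10 genes of detoxification and glutathione metabolism was followed in mouse high-grade glioma cells. They were Ephx1, Gsta4, Gstm1, Gstm5, Gstp1, Nqo1, Hmox1, Gclc, Gclm and Txnrd1, 10 of the 12393 genes with a probe set on the array, and they were represented by 16 of its 22690 probe sets. The members were taken by gene symbol for their function. Ephx1 was selected on its measured log2 values, which were higher in the EGFRvIII than in the PDGF-B arrays, so that its difference between the groups is a description here and was not tested.

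4 arrays held EGFRvIII-driven glioma cells, whose labels give the strain BALBc INK4a -/-, and 2 arrays held PDGF-B-driven cells labelled BALBc. EGFRvIII is a shortened form of the epidermal growth factor receptor that signals without ligand, and PDGF-B is a ligand of the platelet-derived growth factor receptors. In both groups, neural progenitors from embryos of the named strain at embryonic day 14 had received a retrovirus carrying the driver and DsRed, and had been placed in the brain parenchyma of adult BALBc mice. Tumours were taken when symptoms began, and cells positive for the reporter were sorted. The protocols name DsRed in some fields and EGFP in another, and mention both culture and sorting after dissociation. No source used here names the promoter of the retrovirus. Driver and INK4a genotype differed together and cannot be told apart. In a sorted population, a difference in the share of cells that carry an RNA and a difference in RNA per cell cannot be told apart either.

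Enzymes of this kind handle reactive compounds in steps. Epoxide hydrolases open reactive epoxides, glutathione S-transferases (GSTs) join electrophiles to the tripeptide glutathione, and quinone reductases and heme oxygenase act on further toxic substrates. Glutathione and thioredoxin supply the reducing power, and the transcription factor NRF2, encoded by Nfe2l2 and held in check by KEAP1, drives many of these genes through antioxidant response elements in DNA. In the brain, glutathione metabolism and several of the transferases are prominent in astrocytes.

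The upstream sequences of 4 members are shown because Ephx1 and Gstm1 had the 2 largest differences between the groups and because Gclm and Gstm5, which have 1 annotated window each, carried the core of the antioxidant response element in it. Each is the 250 bases before the annotated transcription start in RefSeq, build GRCm38.p6, written 5′ to 3′ on the strand of the gene. The windows are chr1:181017570-181017819 (minus strand) for Ephx1, chr3:108017974-108018223 (minus strand) for Gstm1, chr3:122245307-122245556 (plus strand) for Gclm and chr3:107895604-107895853 (plus strand) for Gstm5. Gstm1 also had a second annotated window with another start site, chr3:108017819-108018068 (minus strand), which is not shown and did not hold the core. Capitals mark the motif core, TGACNNNGC read on either strand.
Ephx1: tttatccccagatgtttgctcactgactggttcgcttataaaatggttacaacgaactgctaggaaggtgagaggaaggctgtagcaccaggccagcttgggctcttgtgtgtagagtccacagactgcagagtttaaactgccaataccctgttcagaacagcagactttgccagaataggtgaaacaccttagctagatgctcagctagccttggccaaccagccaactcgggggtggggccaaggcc
Gstm1: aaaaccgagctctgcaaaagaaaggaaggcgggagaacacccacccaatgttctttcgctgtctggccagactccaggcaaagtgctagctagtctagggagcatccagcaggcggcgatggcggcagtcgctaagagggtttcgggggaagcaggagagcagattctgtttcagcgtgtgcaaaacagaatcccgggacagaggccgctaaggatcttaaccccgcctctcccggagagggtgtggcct
Gclm: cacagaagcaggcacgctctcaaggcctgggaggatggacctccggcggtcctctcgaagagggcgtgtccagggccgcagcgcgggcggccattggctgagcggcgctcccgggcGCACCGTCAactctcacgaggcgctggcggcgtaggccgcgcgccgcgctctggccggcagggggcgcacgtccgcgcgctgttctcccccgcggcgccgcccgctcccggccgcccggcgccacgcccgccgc
Gstm5: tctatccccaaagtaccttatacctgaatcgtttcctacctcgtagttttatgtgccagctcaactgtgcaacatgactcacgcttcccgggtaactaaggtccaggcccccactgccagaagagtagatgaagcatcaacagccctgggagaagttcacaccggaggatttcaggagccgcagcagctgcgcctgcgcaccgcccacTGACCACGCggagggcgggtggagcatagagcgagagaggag

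Promoter windows were present for 7 of the 10 members. Gsta4, Hmox1 and Gclc had no entry. The search covered 300 bases per window, 250 before and 50 after the start. The core occurred in 3 of these 7 members, namely Gclm, Gstm5 and 1 of the 3 windows of Txnrd1, or 42.9%, against 14% of the 27025 genes with a window. Counted by window it was 3 of 10 (30%), against 12.4% of all 32851 windows. The difference in these shares was not tested. In Gstm5 the match TGACCACGC began 42 bases before the start site. In Gclm the reverse strand read TGACGGTGC, and the end of this match farthest from the start site lay 134 bases before it. The match of Txnrd1, also on the reverse strand, had that end 92 bases before the start of its window's transcript. None of the 3 matches contained an AP-1 site (TGANTCA), though such a site lay elsewhere in the window of Gstm5 and also in that of Gstp1. Neither Ephx1, Gstm1, Gstp1 nor Nqo1 held the core in these windows, which says only that those letters were not found there.

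Values are log2 intensities after RMA, a method that corrects background, normalizes arrays by quantiles and sums up the probes of a probe set. Arrays are named by replicate number, and levels of different probe sets are not set against each other. Where a gene had several probe sets the one of highest average signal was taken. A gene was tested where it lay above the array's median in at least 2 arrays, which left 6761 genes, and p-values from limma were adjusted by Benjamini and Hochberg over all of them. The array medians were 6.69 to 6.83 in EGFRvIII and 6.65 in both PDGF-B arrays. Of all tested genes 2.23% passed at an adjusted p under 0.05. Cdkn2a, the INK4a locus, stood at 3.70 to 3.78 in EGFRvIII and at 6.83 and 6.77 in PDGF-B cells, as labelled, although the place of its probe set relative to the deletion is not known here. Among the EGFRvIII arrays, replicates 1 and 2 had a low signal of Xist (3.85 and 4.46, against 11.71 to 12.38 in the other 4 arrays). The Y-linked gene Kdm5d was high in the same 2 arrays (9.4 and 8.97, against 3.39 to 3.58 in the other 4). This is the pattern of male cells in EGFRvIII replicates 1 and 2 and of female cells in the other 4 arrays. Both PDGF-B arrays are among those 4, so that sex differed within the EGFRvIII group and between the groups.

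Ephx1, the microsomal epoxide hydrolase, was higher in EGFRvIII cells. Its 1 probe set read 8.18, 8.21, 8.87 and 7.99 in EGFRvIII replicates 1 to 4, against 5.82 and 5.88 in PDGF-B replicates 1 and 2. All 4 EGFRvIII arrays lay above both PDGF-B arrays, and the gap between the groups was larger than the spread within either one. The means were 8.31 ± 0.38 (SD, n = 4) in EGFRvIII and 5.85 ± 0.04 (SD, n = 2) in PDGF-B cells, a log2 difference of 2.46 or 5.5-fold. Groups that do not overlap with EGFRvIII higher were found for 22.5% of all tested genes, and nothing is read from this for Ephx1. The gene lay above the array median in the 4 EGFRvIII arrays and below it in both PDGF-B arrays, so that it entered the fit through the group where it was high. Leaving out any 1 array gave log2 differences between 2.28 and 2.57, and the 4 arrays with a high Xist signal gave 2.58.

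The 5 genes with a profile over the 6 arrays closest to that of Ephx1 were found, with likeness measured as the root mean square difference after subtracting each gene's mean, and this too is a description. Cyclin G1 (Ccng1), a p53 target, and Csf1, a growth factor of macrophages, were nearest, each at 0.26. They were followed by Casp12, a caspase linked to stress of the endoplasmic reticulum, at 0.32, by Abat, the enzyme that breaks down GABA, at 0.33, and by the junctional adhesion molecule Jam2 at 0.39. Ccng1 read 10.82, 11.16, 11.09 and 10.90 in EGFRvIII replicates 1 to 4, against 8.78 and 8.74 in PDGF-B replicates 1 and 2. As with Ephx1, all 4 EGFRvIII arrays of Ccng1 lay above both PDGF-B arrays, which its choice by likeness to Ephx1 favoured. The SD of Ephx1 among the EGFRvIII arrays, 0.38, was above the median of 0.19 over all tested genes.

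**Figure D1:**
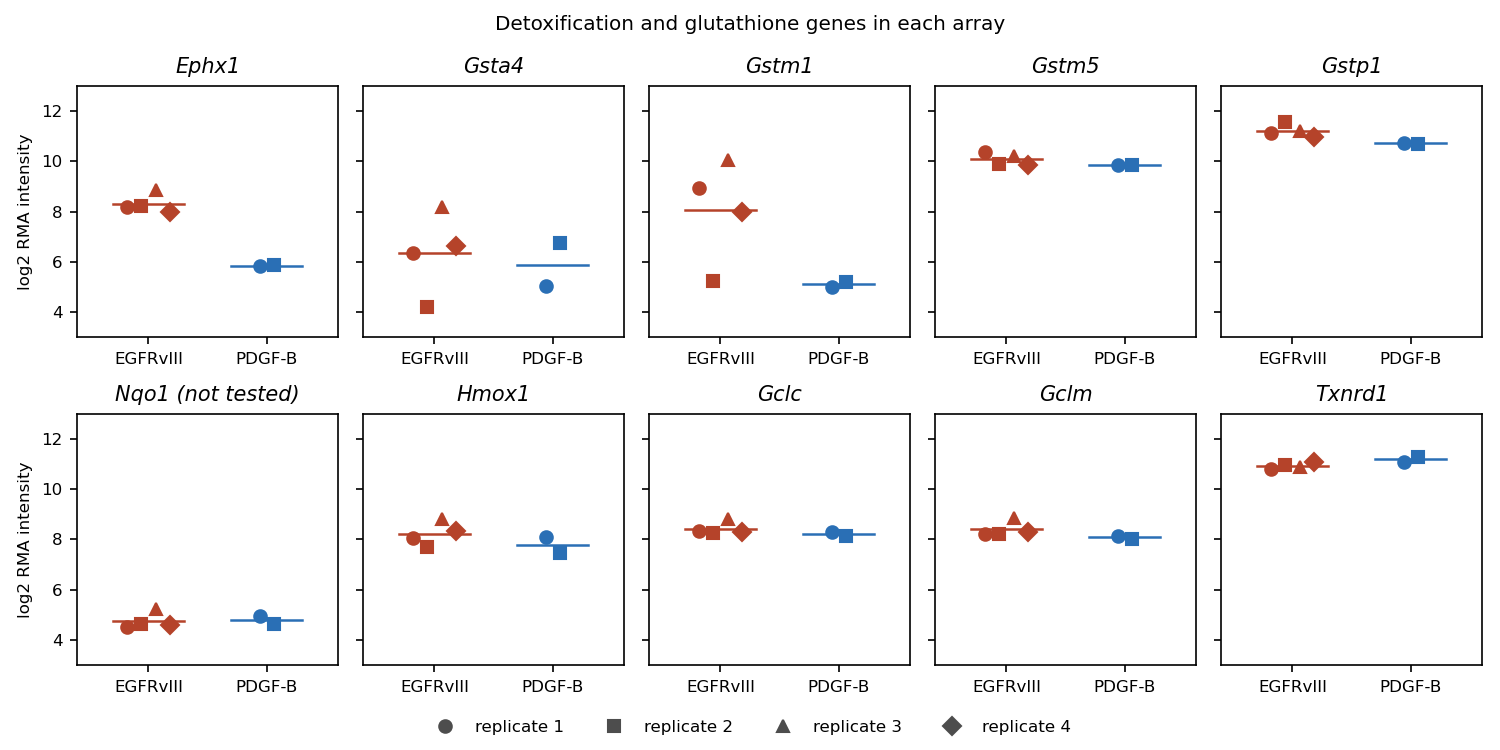
Log2 RMA intensity (vertical axis) of the probe set used for each of the 10 genes in the 4 EGFRvIII arrays (red, left) and the 2 PDGF-B arrays (blue, right); marker shapes give the replicate number and horizontal lines the group means. Ephx1 is separated between the groups, while Gstm1 is spread from 5.23 to 10.05 within the EGFRvIII arrays.

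Gstm1, a cytosolic GST of the mu class, had the largest mean difference of the 10 genes but varied strongly between EGFRvIII tumours. It read 8.95, 5.23, 10.05 and 7.99 in EGFRvIII replicates 1 to 4, against 5.01 and 5.20 in PDGF-B replicates 1 and 2. Replicates 1, 3 and 4 were far above the PDGF-B arrays, while replicate 2 stood just above them. The means were 8.05 ± 2.06 in EGFRvIII and 5.10 ± 0.14 in PDGF-B cells (SD, n = 4 and 2), a log2 fold change of 2.95 (SE 1.19), which did not pass (limma adjusted p = 0.188, unadjusted p = 0.0432). Without EGFRvIII replicate 2 it was 3.89 and passed (limma adjusted p = 0.0292), and without EGFRvIII replicate 3 it was 2.29 (limma adjusted p = 0.256). Over the 16 other settings that could fit it the limma adjusted p ran from 0.0292 to 0.426.

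A second Gstm1 probe set, 1448330_at, gave the same order of arrays among the EGFRvIII tumours, at 8.43, 5.01, 9.76 and 7.28 in replicates 1 to 4, against 5.14 and 5.29 in PDGF-B replicates 1 and 2. In it EGFRvIII replicate 2 lay below both PDGF-B arrays, so that the groups overlapped (log2 fold change 2.41, limma adjusted p = 0.251 with every probe set fitted). The other 2 Gstm1 probe sets, 1425626_at and 1425627_x_at, were below the array median in every array and differed by 0.09 and 0.25 (log2). In all 4 probe sets EGFRvIII replicate 3 was the highest and replicate 2 the lowest of the EGFRvIII arrays. Probe sets of the mu class can catch related transcripts, since the genes are close copies. Of the other mu class genes, Gstm2, Gstm3, Gstm4 and Gstm6 were too dim to be tested, with means of 4.93, 4.64, 3.76 and 3.52 in EGFRvIII and 4.63, 5.08, 4.04 and 3.32 in PDGF-B cells. Gstm7, which was tested, read 6.84, 7.15, 7.80 and 6.66 in EGFRvIII replicates 1 to 4, against 6.13 and 6.29 in PDGF-B replicates 1 and 2. It was highest in replicate 3, as Gstm1 was, but lowest in replicate 4 among the EGFRvIII arrays, and the groups did not overlap.

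The mean of the astrocyte markers moved with Gstm1 between the arrays, though not every marker did. The mean of 10 astrocyte markers was 7.50, 6.73, 8.31 and 7.33 in EGFRvIII replicates 1 to 4, against 6.02 and 6.28 in PDGF-B replicates 1 and 2. This is the order that Gstm1 had among the EGFRvIII arrays, with replicate 3 highest and replicate 2 lowest. Of the 10 markers 5 were bright enough to be tested, and 1, Clu, passed as higher in EGFRvIII cells. Gfap, the intermediate filament of astrocytes, was not tested and read 6.61, 5.36, 7.68 and 5.56 in EGFRvIII replicates 1 to 4, against 4.84 and 4.60 in PDGF-B replicates 1 and 2. The gap junction protein Gja1 stood at 8.71 in EGFRvIII replicate 3 and between 3.46 and 5.52 in the other EGFRvIII arrays, against 3.70 and 3.79 in PDGF-B cells. S100b went another way and was highest in EGFRvIII replicate 2, at 12.35. Aqp4 was highest in EGFRvIII replicate 1 (6.53) and Aldoc lowest in EGFRvIII replicate 4 (11.56) among the EGFRvIII arrays. Gjb6 was highest in EGFRvIII replicate 4 (3.61) and lowest in EGFRvIII replicate 1 (3.26) among them. The other markers were highest in replicate 3 and lowest in replicate 2 of the EGFRvIII arrays. The Egfr probe set read 7.68, 6.17, 8.78 and 7.74 in EGFRvIII replicates 1 to 4, against 6.40 and 6.20 in PDGF-B replicates 1 and 2. In EGFRvIII replicate 2 it lay below both PDGF-B arrays. Whether this probe set detects the EGFRvIII of the retrovirus is not known here, so that it is not taken as the level of the driver. The part of astrocyte-like cells or of Egfr signal in the Gstm1 values was not tested.

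**Figure D2:**
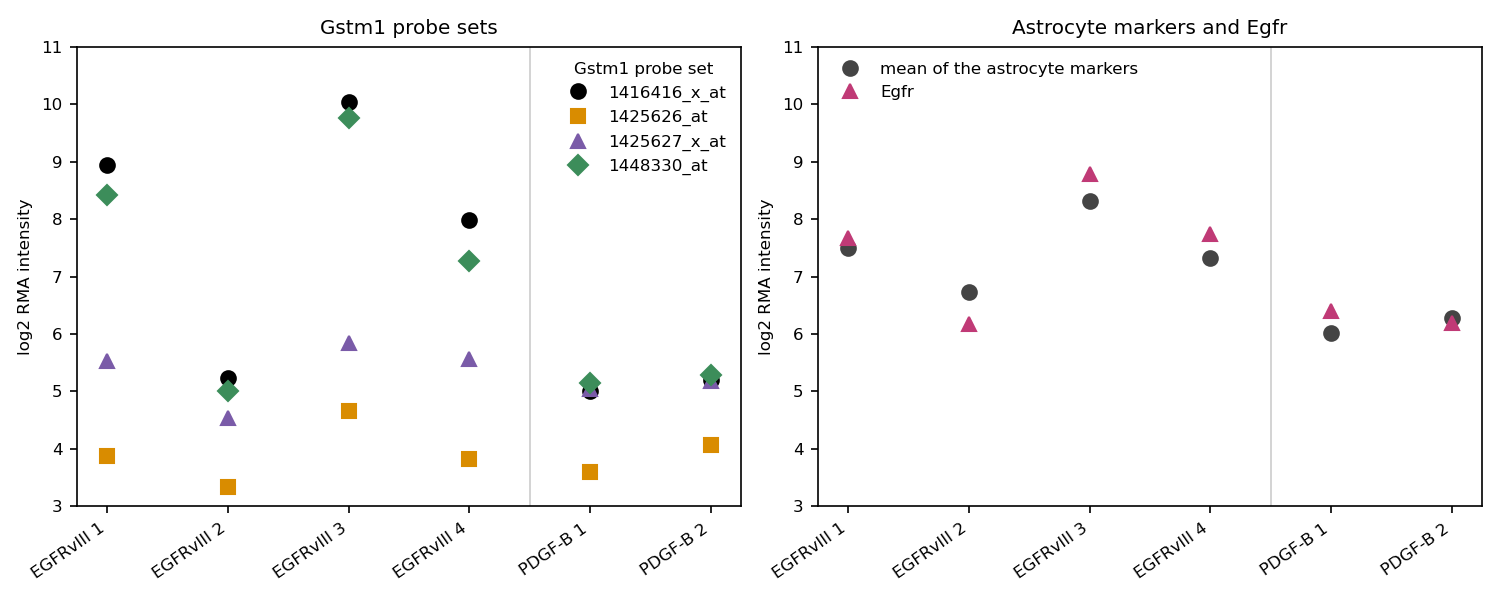
Left, log2 RMA intensity of the 4 Gstm1 probe sets in each array; right, the mean of 10 astrocyte markers and the Egfr signal in the same arrays. The 2 brighter Gstm1 probe sets, the astrocyte mean and Egfr are all highest in EGFRvIII replicate 3 and lowest among EGFRvIII arrays in replicate 2.

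Gsta4, a GST of the alpha class that acts on products of lipid peroxidation such as hydroxynonenal, was uneven in both groups. It read 6.36, 4.21, 8.19 and 6.62 in EGFRvIII replicates 1 to 4, against 5.02 and 6.75 in PDGF-B replicates 1 and 2. The groups overlapped widely, and as for Gstm1 replicate 3 was the highest and replicate 2 the lowest EGFRvIII array. The log2 fold change was 0.46 (SE 1.03; limma adjusted p = 0.807), and it turned negative without PDGF-B replicate 1 (-0.40). Among the EGFRvIII arrays the SD was 2.06 for Gstm1 and 1.64 for Gsta4, against a median of 0.19 over all tested genes. Only 0.192% of the tested genes had a larger SD than Gstm1 there and 0.459% a larger one than Gsta4, while Txnrd1, with an SD of 0.10, was exceeded by 83.7%.

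Gstm5 and Gstp1 lay above the array median in every array, and their SDs among the EGFRvIII arrays, 0.24 and 0.26, were above the median of all tested genes. Gstm5, of the mu class, read 10.36, 9.88, 10.20 and 9.87 in EGFRvIII replicates 1 to 4, against 9.85 and 9.84 in PDGF-B replicates 1 and 2. EGFRvIII replicates 2 and 4 lay just above the PDGF-B arrays, and the log2 fold change of 0.23 (SE 0.18) did not pass (limma adjusted p = 0.444) and was 0.13 without EGFRvIII replicate 1. Gstp1, the pi class transferase, read 11.14, 11.58, 11.19 and 10.96 in EGFRvIII replicates 1 to 4, against 10.74 and 10.70 in PDGF-B replicates 1 and 2. It was the 1 member with its highest value in EGFRvIII replicate 2. Every EGFRvIII array exceeded both PDGF-B arrays, and the log2 fold change was 0.49 (SE 0.18; limma adjusted p = 0.166, unadjusted p = 0.0331), or 1.41-fold. Gstp2 is a close copy of Gstp1, and their transcripts may not be told apart by this probe set.

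Nqo1 and Hmox1 are classical NRF2 targets. Nqo1, a quinone reductase, was below the array median in every array and was not tested. It read 4.49, 4.62, 5.22 and 4.60 in EGFRvIII replicates 1 to 4, against 4.95 and 4.63 in PDGF-B replicates 1 and 2, and the groups overlapped. Hmox1, the inducible heme oxygenase, read 8.04, 7.70, 8.80 and 8.34 in EGFRvIII replicates 1 to 4, against 8.09 and 7.46 in PDGF-B replicates 1 and 2. The groups overlapped here too (log2 fold change 0.44, SE 0.32; limma adjusted p = 0.422). It was 0.76 without PDGF-B replicate 1, 0.13 without PDGF-B replicate 2 and 0.25 without EGFRvIII replicate 3, and did not pass in any of these. Hmox1 is also strongly expressed by macrophages. None of the 11 microglia and macrophage markers was bright enough to be tested, and their mean per array was 4.05 to 4.15 in EGFRvIII, against 4.22 and 4.25 in PDGF-B cells.

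Gclc and Gclm encode the catalytic and the modifier subunit of glutamate-cysteine ligase, the first enzyme of glutathione synthesis. Gclc read 8.34, 8.24, 8.82 and 8.28 in EGFRvIII replicates 1 to 4, against 8.28 and 8.15 in PDGF-B replicates 1 and 2. Gclm read 8.22, 8.23, 8.86 and 8.29 in EGFRvIII replicates 1 to 4, against 8.14 and 8.03 in PDGF-B replicates 1 and 2. In both subunits EGFRvIII replicate 3 stood above the other 3 EGFRvIII arrays, which lay near the PDGF-B arrays. The log2 fold change was 0.20 for Gclc (SE 0.19; limma adjusted p = 0.534) and 0.31 for Gclm (SE 0.21; limma adjusted p = 0.385). Without EGFRvIII replicate 3 these were 0.07 and 0.16. In a second Gclc probe set the groups overlapped, with a log2 difference of 0.04.

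Txnrd1, the cytosolic thioredoxin reductase, was the 1 tested member with a negative difference. It read 10.82, 10.94, 10.88 and 11.07 in EGFRvIII replicates 1 to 4, against 11.08 and 11.29 in PDGF-B replicates 1 and 2. EGFRvIII replicate 4 lay just below PDGF-B replicate 1, and the log2 fold change of -0.26 (SE 0.13) did not pass (limma adjusted p = 0.274) and was -0.15 without PDGF-B replicate 2. In its other 2 probe sets the groups overlapped, with log2 differences of -0.09 and -0.17.

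**Figure D3:**
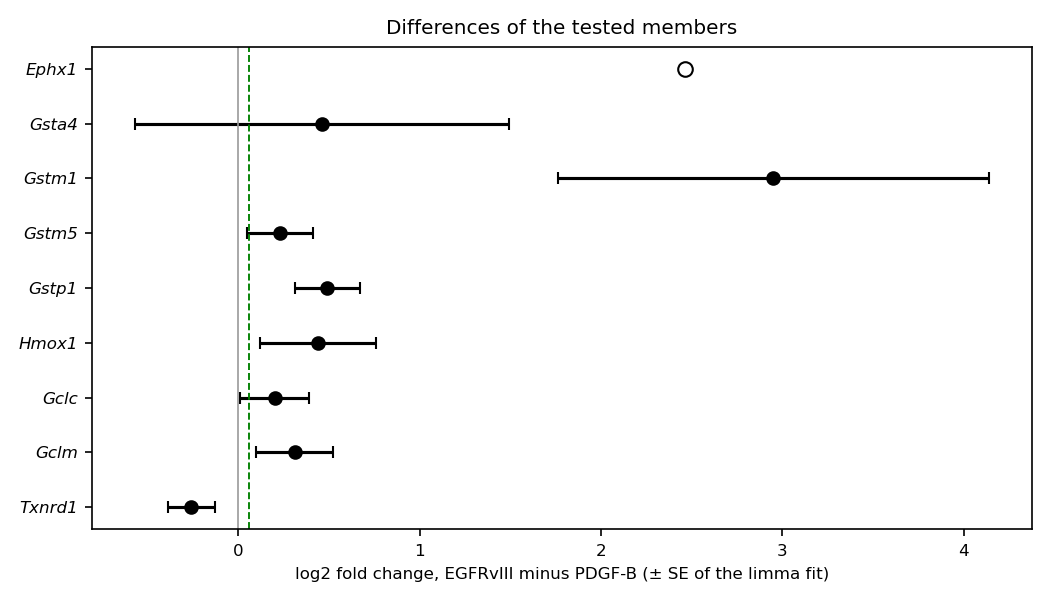
Log2 fold change, EGFRvIII minus PDGF-B (horizontal axis), of the 9 tested genes; filled points carry the standard error of the limma fit, and the open point is Ephx1, which was chosen for its difference. The dashed line is the median of all tested genes, 0.06; Gstm1 at 2.95 has the widest error bar.

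Of the 8 tested members besides Ephx1, 0 passed in limma and 2, Gstm1 and Gstp1, had an unadjusted p under 0.05, a share equal to the 25% of all tested genes below that value. Across all tested genes 1.64% passed as higher and 0.592% as lower in EGFRvIII cells. As deposited these were 111 higher and 40 lower genes, with each array centred on its median 61 higher and 57 lower, and after quantile normalization 77 higher and 44 lower. In 4 of the 8 every EGFRvIII array was above both PDGF-B arrays (22.5% of all tested genes), in 1 every EGFRvIII array was below (14.9%), and in 3 the groups overlapped. The 5 without overlap compare with 37.4% of all tested genes. One of those 4, Gstm1, lay above the array median only in EGFRvIII arrays, so that its place in this count was favoured by the filter. The log2 fold changes of the 8 had a median of 0.38, against 0.06 for all tested genes, and ran from -0.26 to 2.95.

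Within the EGFRvIII group the members were most often highest in replicate 3. Of the 9 tested members 6 had their highest EGFRvIII value in replicate 3, namely Ephx1, Gsta4, Gstm1, Hmox1, Gclc and Gclm, and Nqo1, which was not tested, did so too. Over all tested genes replicate 3 was the highest in 30.4%. It was 0.56 above the EGFRvIII mean for Ephx1, 0.58 for Hmox1, 0.40 for Gclc and 0.46 for Gclm. Replicate 2 was the lowest for 4 of the 9 members, against 26.6% of all tested genes. Its difference from the EGFRvIII mean was -2.82 for Gstm1, -2.13 for Gsta4, -0.52 for Hmox1 and -0.18 for Gclc. Ephx1 did not share this low value and read 8.21 in replicate 2.

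**Figure D4:**
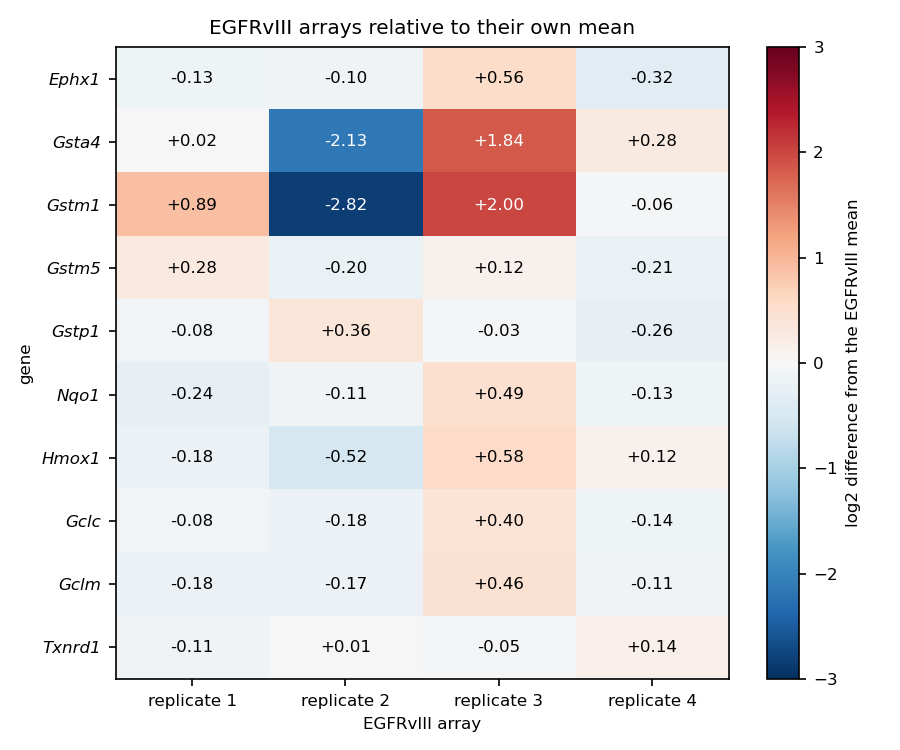
Difference of each EGFRvIII array from the mean of the 4 EGFRvIII arrays, on the log2 scale, for the 10 genes (rows) and replicates 1 to 4 (columns); red is above and blue below the mean. Replicate 3 is red for Ephx1, Gsta4, Gstm1, Nqo1, Hmox1, Gclc and Gclm, and the deepest blue is Gstm1 in replicate 2 at -2.82.

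The regulators of the pathway were measured beside its targets. Of 9 tested genes among NRF2 and its regulators, 0 passed in limma, and 3 had an unadjusted p under 0.05. Nfe2l2, which encodes NRF2, read 7.72, 7.30, 8.41 and 7.24 in EGFRvIII replicates 1 to 4, against 6.91 and 7.31 in PDGF-B replicates 1 and 2. As for most members, EGFRvIII replicate 3 was the highest array (log2 fold change 0.56, SE 0.34; limma adjusted p = 0.348). Keap1, the inhibitor of NRF2, had a log2 fold change of 0.14 (limma adjusted p = 0.523). Nfe2l1, a relative of NRF2, and Maff, a small MAF partner, had log2 fold changes of -0.56 (limma adjusted p = 0.141) and 0.56 (limma adjusted p = 0.380). The list had a median of 0.24.

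Of the wider pathway, 127 genes were listed in 8 groups, 107 had a probe set and 59 were tested. Fech was the 1 gene of the 59 that passed, while 2.23% of all tested genes did. An unadjusted p under 0.05 was found for 16. That share is near the 25% of all tested genes, which is also the background for the unadjusted counts of the single lists. Positive log2 fold changes were found for 35 of the 59 genes (59.3%), against 56.5% of all tested genes, and the median was 0.15, against 0.06. Every EGFRvIII array lay above the PDGF-B arrays for 14 of the 59 (23.7%, against 22.5% of all tested genes) and below them for 5 (8.47%, against 14.9%). Of those 14 genes 2, Mgst1 and Gstm7, lay above the array median in EGFRvIII arrays alone, so that the filter favoured their place in the count.

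Fech, ferrochelatase, which puts iron into heme, rose 2.02-fold in EGFRvIII cells. It read 8.60, 8.39, 9.0 and 8.66 in EGFRvIII replicates 1 to 4, against 7.71 and 7.59 in PDGF-B replicates 1 and 2, with no overlap (log2 fold change 1.02, SE 0.18; limma adjusted p = 0.048). The other 3 Fech probe sets gave log2 differences of 0.69, 0.29 and 0.39, also positive. Fech no longer passed in 11 of 18 other settings, over which its limma adjusted p ran from 0.031 to 0.184. These included both other scalings and the fits without EGFRvIII replicate 1 (limma adjusted p = 0.111), EGFRvIII replicate 4 (0.0806), PDGF-B replicate 1 (0.184) and PDGF-B replicate 2 (0.183). Fech acts in heme synthesis but was counted in the list named heme breakdown and iron storage. The other 4 tested genes of that list did not pass, and the median of the list was 0.43.

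Among the other glutathione S-transferases 4 of 18 genes on the array were tested, 0 passed in limma and 3 had an unadjusted p under 0.05. Mgst1, a microsomal transferase, read 8.26, 6.80, 8.30 and 6.27 in EGFRvIII replicates 1 to 4, against 4.32 and 5.79 in PDGF-B replicates 1 and 2. All EGFRvIII arrays were higher, yet both groups were uneven, and Mgst1 was above the array median in EGFRvIII arrays alone (log2 fold change 2.36, SE 0.69; limma adjusted p = 0.106), and a second Mgst1 probe set had 0.09. Gstm7 was likewise above the array median in EGFRvIII arrays alone, with a log2 fold change of 0.90 (limma adjusted p = 0.144) and -0.08 in its other probe set. The median over the 4 tested genes, 0.80, is therefore favoured by the filter, and over all 18 on the array it was 0.25. Gstz1, an enzyme of tyrosine breakdown, had a log2 fold change of 0.70 and passed in 1 other setting (limma adjusted p = 0.0425 where genes had to exceed the array median in all 6 arrays).

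Genes of glutathione synthesis, recycling and peroxidases gave 0 calls among 11 tested genes in limma, 4 of them with an unadjusted p under 0.05, and a median of -0.12. Chac1, an enzyme that degrades glutathione, read 4.07, 5.60, 5.42 and 5.88 in EGFRvIII replicates 1 to 4, against 8.50 and 6.79 in PDGF-B replicates 1 and 2. Every EGFRvIII array was below both PDGF-B arrays, and Chac1 was above the array median in the PDGF-B arrays alone (log2 fold change -2.40, SE 0.62; limma adjusted p = 0.082). It was -1.54 without PDGF-B replicate 1. Gpx8, a peroxidase of the endoplasmic reticulum, read 7.78, 5.43, 9.50 and 6.57 in EGFRvIII replicates 1 to 4, against 4.96 and 6.23 in PDGF-B replicates 1 and 2. It had its highest value in EGFRvIII replicate 3 and its lowest EGFRvIII value in replicate 2, as Gstm1 and Gsta4 had (log2 fold change 1.72; limma adjusted p = 0.345).

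The remaining groups held no call. Of 9 tested thioredoxin, peroxiredoxin and superoxide enzymes 0 passed in limma and 0 had an unadjusted p under 0.05, with a median of -0.02. Srxn1, sulfiredoxin, had a log2 fold change of 0.58 (limma adjusted p = 0.366), with its other probe sets at -0.11, 0.34 and -0.14, and Prdx4, a peroxiredoxin of the secretory pathway, one of -0.30 (limma adjusted p = 0.371). Of the 7 tested NADPH-producing enzymes 0 passed in limma and 0 had an unadjusted p under 0.05, and the median was -0.02. Taldo1, transaldolase, had 0.48 (limma adjusted p = 0.391) and Me1, malic enzyme, -0.21 (limma adjusted p = 0.707) as log2 fold changes.

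Of the 11 tested epoxide, quinone, aldehyde and conjugating enzymes other than the members, 0 passed in limma and 3 had an unadjusted p under 0.05. A positive log2 fold change was found for 10 of the 11, against 56.5% of all tested genes. The median was 0.34 over the tested genes and 0.15 over all 27 on the array. Aldh9a1, an aldehyde dehydrogenase, read 9.82, 10.13, 9.47 and 9.78 in EGFRvIII replicates 1 to 4, against 7.87 and 8.92 in PDGF-B replicates 1 and 2. The groups did not overlap, but the PDGF-B arrays differed by more than the EGFRvIII arrays (log2 fold change 1.41, SE 0.31; limma adjusted p = 0.0621). Aldh9a1 passed in 3 other settings, with limma adjusted p = 0.0425 where genes had to exceed the array median in all 6 arrays, 0.0495 with a trended robust variance and 0.045 for its other probe set with every probe set fitted. Cyb5a, cytochrome b5, had a log2 fold change of 0.76 (limma adjusted p = 0.103). Ephx2, the soluble epoxide hydrolase, was too dim to be tested (log2 difference 0.14). Of 3 tested export pumps 0 passed in limma and 1 had an unadjusted p under 0.05, with Abcc5 at 0.43 (limma adjusted p = 0.179) and Abcc1 at 0.36 (limma adjusted p = 0.297).

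**Figure D5:**
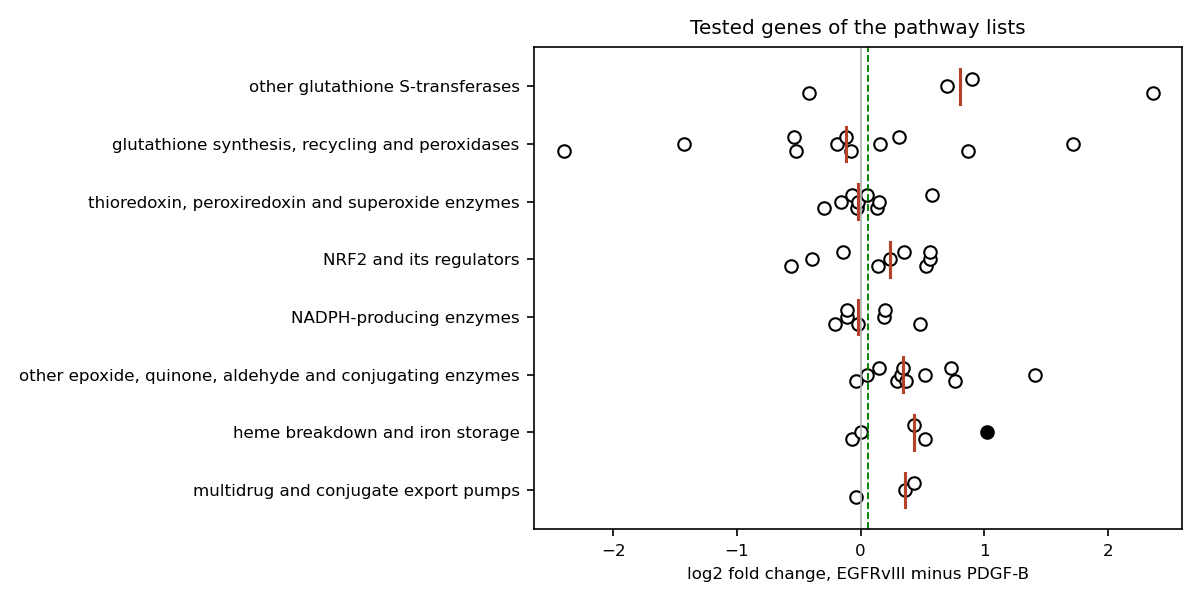
Log2 fold change, EGFRvIII minus PDGF-B (horizontal axis), of each tested gene in the 8 pathway lists (rows); red bars are list medians, the dashed line is the median of all tested genes (0.06) and filled points passed the test. Fech is the 1 filled point, and the widest list runs from -2.40 for Chac1 to 1.72 for Gpx8.

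The sorted cells carried the markers of oligodendrocyte progenitors, with an array mean of 8 such markers of 11.34 to 11.73 in EGFRvIII, against 11.16 and 11.29 in PDGF-B cells. Markers of endothelial cells (7 genes) averaged 4.20 to 4.35 in EGFRvIII, against 4.31 and 4.56 in PDGF-B cells, those of pericytes and fibroblasts (7 genes) 4.48 to 4.89 in EGFRvIII, against 4.66 and 4.76 in PDGF-B cells, and none of either list was bright enough to be tested. Ependymal and choroid plexus markers (4 genes) likewise had no tested member. Mature oligodendrocyte markers (6 genes) averaged 8.47 in EGFRvIII replicate 2 and 6.57 to 7.50 in the other EGFRvIII arrays, against 6.34 and 6.47 in PDGF-B cells. This order among the EGFRvIII arrays was opposite to that of Gstm1 at both ends. The higher EGFRvIII mean came from Mbp, Mag and Cnp, with log2 differences of 3.33, 2.59 and 1.05. Cldn11 went the other way (-0.76), and the dim Mog and Mobp hardly differed (0.07 and -0.13). The part of these cell types in the members' values was not tested. Neuron markers averaged 5.50 to 5.74 in EGFRvIII, against 6.04 and 6.56 in PDGF-B cells, and 3 red blood cell markers 6.94 to 7.09 in EGFRvIII, against 7.05 and 7.23 in PDGF-B cells. The red blood cell mean joined unlike signals. Hba-a2 was bright, with means of 11.48 in EGFRvIII and 11.71 in PDGF-B cells. Alas2 (6.13 and 5.99) and Hba-a1 (3.38 and 3.72) were too dim to be tested.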

How the data were processed

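Gene expression was measured on 6 one-colour Affymetrix mouse arrays, 4 of EGFRvIII-driven and 2 of PDGF-B-driven glioma cells; per the labels' protocols, 30 ng of total RNA per sample were amplified to cDNA and biotin labelled. The authors deposited log2 intensities, 1 per probe set and array, made with RMA (affy 3.4.2), per the submitters' processing notes; the log base was read from their range, 2.22 to 14.4. A pair of deposited tables agreed to within 5e-09. Arrays have no counting depth, and their number limits the precision.

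Of 22690 probe sets 64 were controls; 20380 had 1 gene symbol, 691 several and 1555 none. By Entrez identifier 20351 were matched to current symbols. No gene was named from a probe set with several symbols. Each of 12393 genes was represented by its probe set of highest average signal, and 6761 genes (54.6%) above the median of the non-control probe sets in at least 2 arrays were tested.

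The groups were compared with limma 3.58.1 (lmFit and eBayes; two-sided), run in R 4.3.3 without covariates, 4 residual and 2.81 prior degrees of freedom, and Benjamini-Hochberg adjustment over all genes tested. The labels call samples of a group biological replicates. The procedure was tested on simulated data. Members, lists, tests and alternatives were chosen with earlier results of these data known. All 10 members were named, with every called gene of each pathway list or else its 2 largest differences, Nfe2l2, Keap1 and the 5 genes nearest to Ephx1; Ephx2, Gstz1, the other mu class genes and the cell type markers described by value were chosen after their values were seen. Alternatives covered the table, scaling, filter, probe sets, variance, weights, replicate block, arrays left out and threshold. Promoters came from RefSeq (GRCm38.p6). Figures were drawn with matplotlib 3.10.9.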

Additional observations from a re-analysis of the deposited data

Results flagged for a closer look

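A single EGFRvIII array far away from its 3 companions was found for 4 of 37 values examined; about 1 in 20 would be so by chance. Gclm read 8.86 in EGFRvIII replicate 3, while the others ran from 8.22 to 8.29. Nfe2l1 was at 9.01 in replicate 3, against 8.54 to 8.59. Abcc1 was at 7.81 in replicate 1, against 7.23 to 7.29. The dimmest probe set of Txnrd1, 1424487_x_at, was at 6.28 in replicate 2, against 6.58 to 6.62.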

How the results depend on the processing

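The difference of Ephx1 stayed within 2.28 to 2.58 in all 17 other settings that could fit it. Since Ephx1 was chosen on these values, this is a description only. Ephx1 did not pass the filter in all 6 arrays, as it was below the median in PDGF-B cells. Of the 8 other tested members, 0 were called in 17 of 18 other settings; without EGFRvIII replicate 2 the count was 1 (Gstm1), and leaving out each array in turn gave 0 to 1. The log2 fold change of Gsta4 ran from -0.40 (without PDGF-B replicate 1) to 1.175 (without EGFRvIII replicate 2) as arrays were left out, and turned to -0.60 with the replicate block; the cause was not tested. The labels give both groups numbers but no shared source, so the replicate block is not a pairing: it left 9 called genes, and deviations of same-numbered arrays correlated at 0.20 and 0.25. Over all genes the count of 151 went to 77 with no filter on dim genes, 265 with the filter in all 6 arrays, 254 with a trended robust variance, 242 genes with every probe set fitted, 15 without EGFRvIII replicates 1 and 2, and 5 at an adjusted p under 0.01. Leaving out each array in turn gave 0 to 193, the lowest being 0 in limma, with 1118 at an unadjusted p under 0.05, when PDGF-B replicate 1 was left out. It was 7 when PDGF-B replicate 2 was left out, 17 for EGFRvIII replicate 1 and 21 for EGFRvIII replicate 4. The median of all genes was 0.06 as deposited and -0.07 with each array centred on its median. As deposited, 7 of the 8 tested members besides Ephx1 were positive, against 56.5% of all tested genes. The sign of Ephx1 was fixed by its choice. With it the count was 8 of 9 as deposited, with centred arrays and under quantile normalization. The pathway lists gained Aldh9a1 in 3 settings and Gstz1 in 1, and lost Fech in 11. With the mean of its probe sets Gstm1 was too dim to be tested.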

Other observations

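The profile of Gstm1 was closest to those of 5 genes, looked up after its values were seen, by the root mean square difference over the 6 arrays after subtracting each gene's mean. The nearest, at 0.28, was Mlc1, a membrane protein of astrocyte end-feet that is mutated in a human leukodystrophy. It read 9.22, 4.76, 10.44 and 7.91 in EGFRvIII replicates 1 to 4, against 4.83 and 5.13 in PDGF-B replicates 1 and 2. The other four were S1pr1, a receptor for sphingosine 1-phosphate, at 0.55, the sodium bicarbonate cotransporter Slc4a4 at 0.57, Lrig1, a negative regulator of EGF receptors, at 0.59, and the carbonic anhydrase Car2 at 0.67. Lrig1 read 10.52, 8.25, 11.20 and 9.61 in EGFRvIII replicates 1 to 4, against 7.18 and 7.03 in PDGF-B replicates 1 and 2, so that its EGFRvIII replicate 2 stayed above the PDGF-B arrays. In these 5 genes, as in Gstm1, EGFRvIII replicate 2 was the lowest and replicate 3 the highest EGFRvIII array. Their choice by likeness to Gstm1 favoured this order, and nothing further is read from it.

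Slc7a11, the cystine transporter that feeds glutathione synthesis, was too dim to be tested. It read 3.26, 3.35, 4.73 and 4.23 in EGFRvIII replicates 1 to 4, against 6.03 and 4.02 in PDGF-B replicates 1 and 2, so that the groups overlapped. The log2 difference of -1.13 was -0.13 without PDGF-B replicate 1.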
